A study of Mus musculus with 6 samples.

Results

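Genes of 10 families of RNA-binding splicing regulators were followed in the prefrontal cortex of Gls1_CamkIIaCre mice, in which 1 floxed allele is removed from part of the forebrain neurons, and of control mice. The members are the genes whose symbols begin with Srsf, Hnrnp, Rbm, Celf, Rbfox, Nova, Elavl, Mbnl, Ptbp or Khdrbs followed by their family numbers, with the cold-inducible Rbm3 left out, and they number 92 of the 21878 genes in the deposited tables. The Rbm prefix gives 37 of them, Hnrnp 20, Srsf 11, Celf 6, Elavl 4, Rbfox, Mbnl, Ptbp and Khdrbs 3 each, and Nova 2. The symbols fit the family label better for some prefixes than for others, since 82 of the 92 carry the deposited term RNA binding, 58 carry a deposited gene ontology term that names splicing, and 19 lie in the deposited spliceosome pathway. Within the Rbm prefix, a splicing term is given for 18 of 37, so a symbol in this prefix names an RNA-binding motif and not always a known splicing role.

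Bulk RNA was sequenced from 3 control and 3 Gls1_CamkIIaCre mice, with no sorting of cells. The control mice carried CamKIIα-Cre and no floxed allele and were littermates of the mutants, per the series description, although their labels call the genotype WT. The Gls1_CamkIIaCre mice had the same CamKIIα-Cre plus 1 floxed allele, which makes the loss heterozygous and mosaic, and homozygous mosaic mice were not viable, per the series description. By that description both groups carry Cre. Age is not given in the sources used here. Each library is a separate mouse. In bulk tissue, fewer cells of a type and less RNA per cell cannot be told apart.

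Splicing regulators act by binding short sequence elements in precursor messenger RNA and raising or lowering the use of nearby splice sites. SR proteins (Srsf genes) mostly bind exonic enhancers, while heterogeneous nuclear ribonucleoproteins (Hnrnp genes) coat nascent transcripts and often silence exons. Regulators at work in neurons include Rbfox, Nova, neuronal Elavl and Celf proteins, and Ptbp2 in place of Ptbp1. They also include Mbnl proteins, which favour adult splice patterns, and the Khdrbs proteins, which act on neurexin transcripts. Many of these proteins adjust their own messenger RNA through splicing, and measurements summed per gene do not show which isoform was made.

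Libraries held between 17987807 and 19330961 counts, of which the members took between 1.12% and 1.16%. Of the 92 members, 87 passed the filter on low counts and were tested. The other 5 were Mbnl3, with 3 to 16 counts a library, Rbm46, with 7 to 21, Rbm4, with 6 to 11, Rbm44, with 3 counts in 1 mutant library and 0 in the other libraries, and Rbm31y, with 0 in all 6. Levels below are CPM (counts scaled to library size) with TMM factors, which adjust for library composition, unless FPKM, the deposited value scaled for gene length, is named. A gene was called when edgeR's quasi-likelihood test gave a Benjamini-Hochberg adjusted p under 0.05 over all 14440 tested genes, and fold changes are Gls1_CamkIIaCre over control.

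Small differences in 7 members passed the test. Rbm26, Rbm5, Hnrnph2, Hnrnpr and Hnrnpul2 rose and Hnrnpc and Mbnl1 fell, with none moving by more than 18.4%. These are 8.05% of the 87 tested members, against 8.24% of all tested genes, so the share lay at the background. Members called higher made up 5.75%, against 3.95% of all genes, and members called lower 2.30%, against 4.29%. An unadjusted edgeR p under 0.05 was reached by 18 members (20.7%), against 22.4% of all genes. Of the 18 members, 14 were higher, and all genes were not counted by direction at this threshold. The 2 groups did not overlap in 21 members (24.1%), against 26.7% of all genes. Of those, 15 were higher (17.2%, against 13.1% of all genes) and 6 lower (6.90%, against 13.6%). No difference between members and other genes was tested.

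The member of smallest p was Rbm26, a zinc finger protein that binds polyadenylated RNA in the nucleus (chr14:105106751-105181039, minus strand, GRCm38.p6). Rbm26 stood at 47.5, 49.0 and 47.0 CPM in the controls and at 57.4, 56.9 and 55.7 CPM in the mutants. All 3 mutant libraries lay above all 3 controls, and the gap between the groups was wider than the range within either. The log2 fold change was 0.24 ± 0.052 (SE, edgeR adjusted p = 0.00615, n = 3 per group), a rise of 18.4%.

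Rbm5, a regulator of exon choice in apoptosis genes that acts in early spliceosome assembly (chr9:107740495-107771007, minus strand), stood at 123, 124 and 114 CPM in the controls and at 139, 135 and 139 CPM in the mutants. Control 3 was the low library, and the groups did not overlap. Its log2 fold change was 0.19 ± 0.044 (SE, edgeR adjusted p = 0.0101). Hnrnph2, which binds runs of guanine and lies on the X chromosome (chrX:134601179-134607060, plus strand), had 156, 153 and 151 CPM in the controls and 167, 175 and 178 CPM in the mutants. Its rise on the log2 scale was 0.18 ± 0.041 (SE, edgeR adjusted p = 0.0111), with mutant 1 nearest to the controls. Hnrnph1, its close paralog, whose reads may be shared with it, had a log2 fold change of 0.04 (adjusted p = 0.648) and was named after its value was seen.

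Hnrnpr, a protein that travels with messenger RNA into axons of motor neurons (chr4:136310942-136345981, plus strand), had 111, 109 and 109 CPM in the controls and 118, 121 and 126 CPM in the mutants. The difference was 0.15 ± 0.043 on the log2 scale (SE, edgeR adjusted p = 0.0349). Hnrnpul2, a nuclear protein of the response to DNA breaks (chr19:8819401-8834143, plus strand), had 300, 299 and 304 CPM against 325, 335 and 323 CPM. At 0.12 ± 0.037 on the log2 scale (SE, edgeR adjusted p = 0.0498) it only just passed. Its span overlaps another protein-coding gene model on the same strand over 4371 bases, and how reads in that stretch were counted is not given in the sources used here.

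Both members that fell did so by about the same amount. Hnrnpc, which binds uridine tracts and packages nascent transcripts (chr14:52073377-52104039, minus strand), stood at 217, 214 and 213 CPM in the controls and at 196, 195 and 187 CPM in the mutants. The groups were well apart, with a log2 fold change of -0.15 ± 0.039 (SE, edgeR adjusted p = 0.0169), a fall of 10.2%. Mbnl1, which is sequestered by expanded repeats in myotonic dystrophy (chr3:60472559-60629750, plus strand), had 113, 124 and 113 CPM in the controls and 105, 99.1 and 108 CPM in the mutants. Control 2 stood above the other 2 controls, and the log2 fold change was -0.16 ± 0.049 (SE, edgeR adjusted p = 0.0443). Without control 2 it was -0.11 (adjusted p = 0.240), and without mutant 2 it was -0.13 (0.224), and the call was also lost without control 1 (0.0511) or mutant 1 (0.0992).

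**Figure D1:**
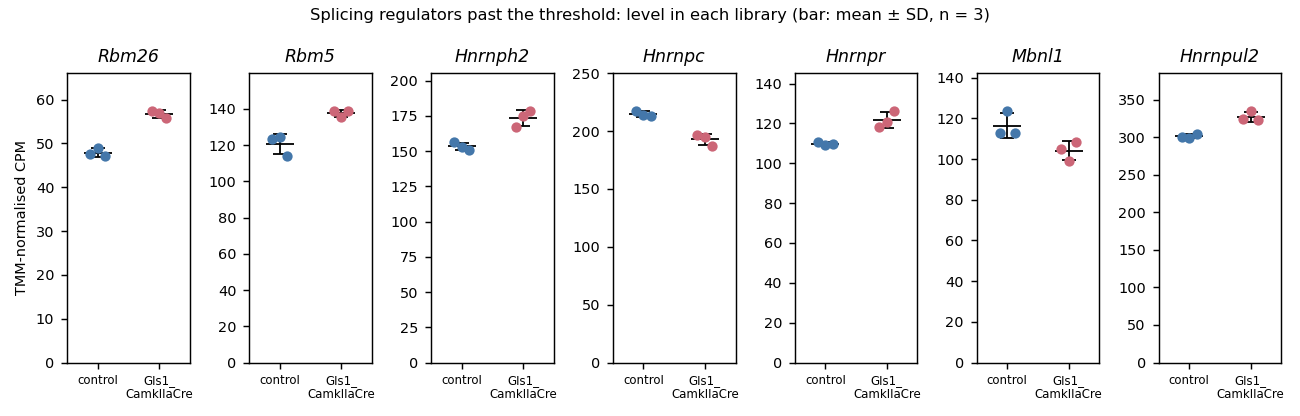
The 7 members past the threshold, 1 panel each, with TMM-normalised CPM on a vertical axis that starts at 0; points are libraries, wide bars the mean and error bars the SD of 3 mice. In every panel the control and Gls1_CamkIIaCre points do not overlap, and the distance between the groups is small against the level of the gene.

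Promoter sequences are shown for the 4 called members of smallest p, so that a reader can see what lies upstream of the genes with the best supported differences. They come from RefSeq (GRCm38.p6), run 5′ to 3′ from 250 bases before the annotated start to 30 after it, and carry in capitals each match to CCAAT (or ATTGG on the other strand) and to GCCATNTT (or AANATGGC), where N is any base. The stretches are chr14:105177285-105177564 (minus strand) for Rbm26, chr9:107770973-107771252 (minus) for Rbm5, chrX:134600929-134601208 (plus) for Hnrnph2 and chr14:52103992-52104271 (minus) for Hnrnpc. The start that the table gives for Rbm26 lies inside the span of the gene.
Rbm26: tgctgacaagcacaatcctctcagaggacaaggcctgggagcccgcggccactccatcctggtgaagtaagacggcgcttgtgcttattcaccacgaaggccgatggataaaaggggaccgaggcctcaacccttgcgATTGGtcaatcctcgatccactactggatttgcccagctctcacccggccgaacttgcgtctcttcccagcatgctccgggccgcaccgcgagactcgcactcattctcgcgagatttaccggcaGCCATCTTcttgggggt
Rbm5: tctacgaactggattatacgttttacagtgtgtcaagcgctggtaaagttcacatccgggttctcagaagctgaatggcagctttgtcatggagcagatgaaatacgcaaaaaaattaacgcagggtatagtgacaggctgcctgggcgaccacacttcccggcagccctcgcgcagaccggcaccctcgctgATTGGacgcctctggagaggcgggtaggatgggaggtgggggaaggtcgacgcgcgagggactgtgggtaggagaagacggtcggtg
Hnrnph2: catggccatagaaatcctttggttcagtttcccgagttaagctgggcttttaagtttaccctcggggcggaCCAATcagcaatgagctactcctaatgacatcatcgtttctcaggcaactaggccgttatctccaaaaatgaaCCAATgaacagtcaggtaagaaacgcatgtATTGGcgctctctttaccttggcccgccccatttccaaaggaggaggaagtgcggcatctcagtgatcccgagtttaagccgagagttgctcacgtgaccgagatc
Hnrnpc: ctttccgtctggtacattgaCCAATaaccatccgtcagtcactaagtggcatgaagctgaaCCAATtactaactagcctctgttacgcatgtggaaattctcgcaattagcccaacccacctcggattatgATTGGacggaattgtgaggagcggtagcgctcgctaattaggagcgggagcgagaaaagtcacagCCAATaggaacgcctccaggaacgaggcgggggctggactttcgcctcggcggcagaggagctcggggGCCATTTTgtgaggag

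Hnrnpc holds 4 CCAAT matches, Hnrnph2 3, and Rbm26 and Rbm5 1 each. GCCATNTT matched once in Rbm26, at 14 bases after the start, and once in Hnrnpc, at 15. In Rbm5 it matched 36 bases after the start, past the stretch printed, and Hnrnph2 has no match. In none of the 4 do matches to these 2 motifs overlap each other. Rbm26 and Rbm5, which rose, and Hnrnpc, which fell, carry both kinds of match. Over the table's full 300 bases, 78 of the 92 members have at least 1 promoter, 120 in all, and CCAAT is found in 47.5% of these against 37.4% of all 32851 promoters. The share with GCCATNTT was 12.5% against 6.05%. Other motifs, searched on both strands and free to overlap, were GGGCGG (59.2% against 35.7%), TGACGT (17.5% against 7.51%), CCGGAAG (12.5% against 8.86%), CACGTG (9.17% against 7.15%) and TATAAA (12.5% against 13.6%). Member promoters are also richer in G and C, with a median of 61.0% against 52.7%, and in CpG, with a median of 22.5 sites against 7. The sets were not matched for base composition, no test was made, and the motifs were chosen after the sequences were seen.

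Most members differed little, and the data bound how far. The median log2 fold change over the 87 tested members was 0.02, against -0.0024 over all tested genes, and 52 members lay above 0 and 35 below. With an offset for the gene length implied by counts and FPKM, the member median was -0.0041, against -0.0034 over all tested genes. The median absolute log2 fold change was 0.052 for members and 0.093 for all genes. For 77 of 87 members the whole 95% interval of the fold change lay within 1.25-fold of no difference in either direction (0.32 on the log2 scale). This was not counted over all tested genes, so it is not read as particular to the members. The interval included 0 for 69 members (79.3%). An unadjusted edgeR p under 0.05 was near the background, at 20.7% of members against 22.4% of all genes. The median half-width of the interval was 0.10 on the log2 scale for members and 0.16 for all genes. The widest were those of low members such as Rbm47, below 1 CPM in every library, whose interval ran from -1.02 to 0.78.

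**Figure D2:**
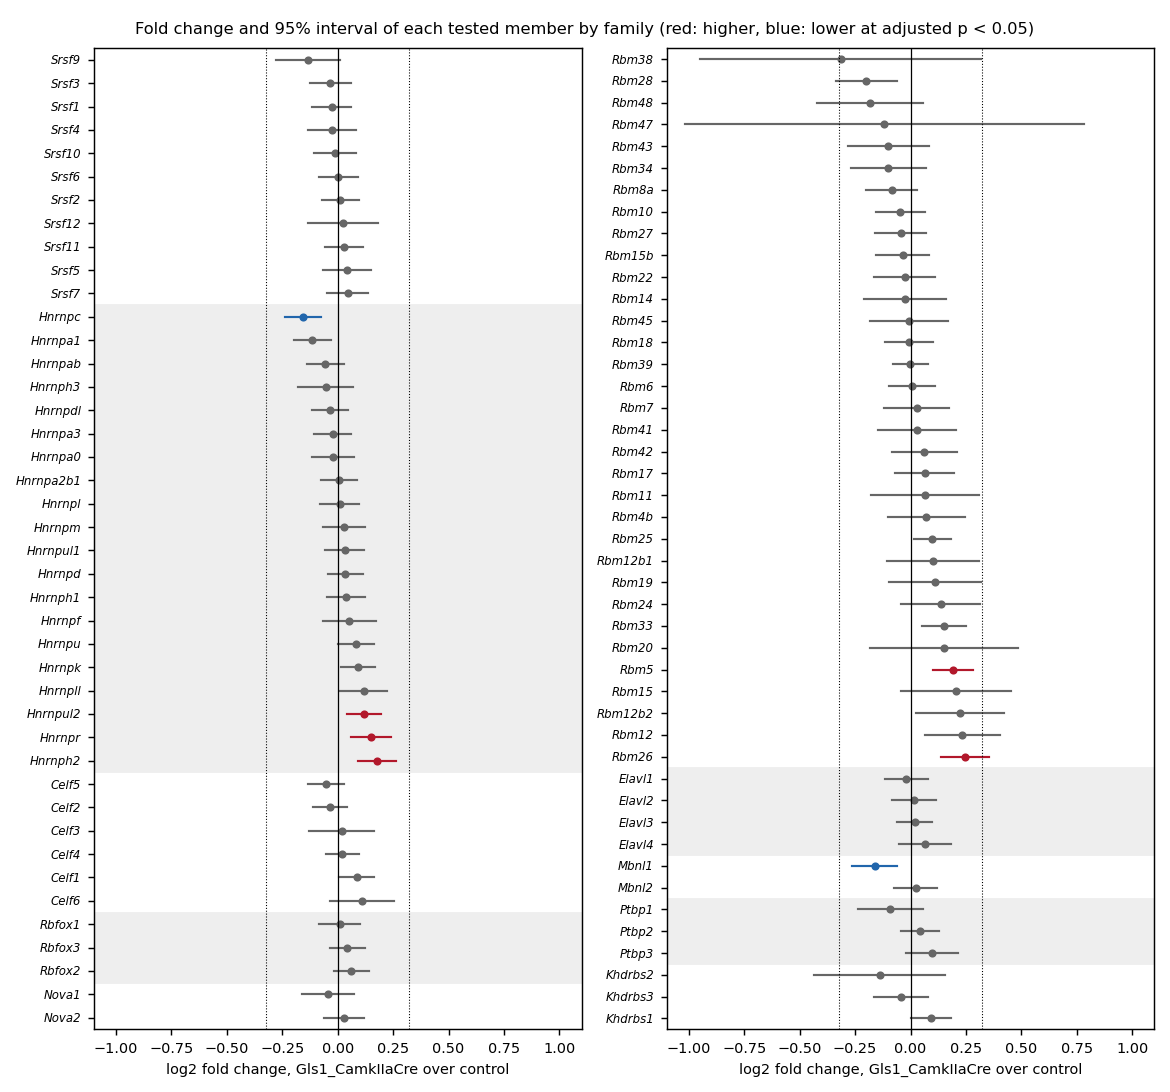
Log2 fold change (horizontal axis, Gls1_CamkIIaCre over control) of each of the 87 tested members, in families set apart by shading, with bars for the 95% interval and dotted lines at 1.25-fold. Red and blue points are the 5 higher and 2 lower members past the threshold, and 77 bars lie wholly between the dotted lines.

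Just outside the threshold stood 4 members that were picked after their values were seen. Rbm33 had a log2 fold change of 0.15 (edgeR adjusted p = 0.0536), Rbm28, a nucleolar protein, had -0.20 (adjusted p = 0.0714), Rbm12 had 0.23 (adjusted p = 0.0827) and Hnrnpa1, an abundant exon silencer with many processed copies in the genome, had -0.11 (adjusted p = 0.0883). Each had groups that did not overlap. The Rbm12 gene model overlaps Cpne1 on the same strand over 20008 bases, so its reads may be mixed with those of Cpne1. Rbm28 stood at 45.2, 43.7 and 48.9 CPM in the controls and 39.8, 43.6 and 36.6 CPM in the mutants, with mutant 2 nearly reaching the lowest control. The line between called and uncalled members therefore falls among genes with differences of like size.

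Among Hnrnp genes, 3 rose and 1 fell of 20, where 3.95% and 4.29% of all tested genes did, and all 20 intervals lay within 1.25-fold. The family's summed level was 3975, 3944 and 3917 CPM in the controls and 4048, 4080 and 3957 CPM in the mutants, and these ranges overlap. Hnrnpk, which binds cytosine-rich RNA, was, with Hnrnpa0, the member of highest mean FPKM over the 6 libraries, and the 2 genes overlap over libraries. Values of Hnrnpk were 76.6, 78.0 and 74.4 FPKM in the controls and 80.6, 82.5 and 79.5 FPKM in the mutants. By counts Hnrnpk had a log2 fold change of 0.09 (95% interval 0.01 to 0.17, edgeR adjusted p = 0.145). The groups do not overlap in either unit, and it did not pass.

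Of the Rbm genes, 33 of 37 were tested and 2 rose, where 3.95% of all tested genes did. The summed level of the prefix was 1513, 1496 and 1491 CPM in the controls and 1554, 1558 and 1524 CPM in the mutants, without overlap. Its median log2 fold change was 0.03, with 18 members above 0 and 15 below. Rbm39, a splicing factor that works with U2AF and has the highest FPKM of the prefix, stood at 347, 343 and 329 CPM in the controls and at 347, 333 and 338 CPM in the mutants. Its interval ran from -0.08 to 0.08 on the log2 scale (edgeR adjusted p = 0.994).

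No SR protein gene passed among 11 tested by edgeR, where 8.24% of all tested genes did, and the smallest adjusted p was 0.258. That was Srsf9, with 32.2, 30.1 and 31.3 CPM in the controls and 26.5, 30.2 and 28.7 CPM in the mutants, where mutant 2 lay within the control range. Its log2 fold change was -0.13, with an interval from -0.28 to 0.01. Srsf5, a shuttling SR protein and the most abundant by FPKM, varied among the controls themselves. It had 255, 265 and 226 CPM there and 266, 253 and 247 CPM in the mutants (log2 fold change 0.04, adjusted p = 0.713). All 11 intervals lay within 1.25-fold, and the family's median log2 fold change was 0.0032.

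Celf proteins, which bind GU-rich elements, gave 0 calls among 6 genes by edgeR in the reported fit, against 8.24% of all tested genes. Celf2, with a log2 fold change of -0.03 there (adjusted p = 0.658), was called lower with an offset for the gene length implied by counts and FPKM (the implied-length offset, adjusted p = 0.0381), and with a replicate block added to that offset (0.00696) or to an offset for the longest GENCODE transcript (0.0278). Celf1 had the smallest p of the family in the reported fit. It stood at 297, 300 and 303 CPM in the controls and at 327, 318 and 310 CPM in the mutants. The groups did not overlap, but the log2 fold change of 0.09 (interval 0.0077 to 0.17) did not pass (edgeR adjusted p = 0.174). The 6 intervals reached from -0.13 to 0.26 at their ends.

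The Srsf, Celf, Rbfox, Nova, Elavl, Ptbp and Khdrbs families gave 0 calls by edgeR in the reported fit, DESeq2 or limma voom. Of all tested genes, 8.24%, 5.76% and 6.95% were called in those fits, in that order. In these families 2 genes, Celf1 and Khdrbs1, had an unadjusted edgeR p under 0.05, and 22.4% of all genes did. The families were grouped here for their lack of calls by the same test, so a low count follows in part from the grouping. The rest of the 18 members at this threshold are Hnrnp, Rbm and Mbnl genes. Rbfox1, whose protein binds GCAUG and controls exons of synaptic genes, had 371, 404 and 379 CPM in the controls and 376, 374 and 411 CPM in the mutants, a log2 fold change of 0.01 (interval -0.08 to 0.10, edgeR adjusted p = 0.936). With the replicate block and the implied-length offset together, Rbfox1 turned to -0.12 and was called lower (adjusted p = 0.0404). Rbfox2 had a log2 fold change of 0.06 (interval -0.02 to 0.14, adjusted p = 0.343), and its mutant libraries, at 376, 371 and 369 CPM, all lay above the controls, at 358, 349 and 362 CPM. Rbfox3, the neuronal marker NeuN, had 271, 267 and 269 CPM against 271, 282 and 280 CPM (log2 fold change 0.04, interval -0.03 to 0.12, adjusted p = 0.543). The lowest mutant library of Rbfox3 stood within the range of the controls by counts. By FPKM all 3 mutant libraries (19.2 to 19.6) lay below the controls (19.7 to 20.5). Summed FPKM of all genes was also lower in every mutant library (238924 to 243144) than in every control (249602 to 252272). No Rbfox gene passed in the reported fit.

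Nova1 and Nova2, the targets of autoantibodies in a paraneoplastic movement disorder, bind YCAY elements. Nova1 spread widely within the groups, with 83.6, 91.0 and 98.0 CPM in the controls and 84.0, 87.4 and 93.3 CPM in the mutants (log2 fold change -0.04, interval -0.16 to 0.08, edgeR adjusted p = 0.722). Nova2 had 115, 113 and 113 CPM against 115, 121 and 112 CPM (log2 fold change 0.03, interval -0.06 to 0.12, adjusted p = 0.773). The groups overlap in both genes.

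The Elavl genes encode Hu proteins, which bind AU-rich and U-rich RNA, and Elavl1 (HuR) is made in most cells while the other 3 are neuronal. Elavl1 had a log2 fold change of -0.02 (interval -0.11 to 0.08, edgeR adjusted p = 0.864), Elavl2 of 0.01 (-0.09 to 0.12, adjusted p = 0.90) and Elavl3 of 0.02 (-0.06 to 0.10, adjusted p = 0.830). Elavl4 stood at 116, 122 and 134 CPM in the controls and at 122, 128 and 139 CPM in the mutants (0.06, interval -0.05 to 0.18, adjusted p = 0.546). In each of the 4 the groups overlap.

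Ptbp1 represses neural exons in progenitors and glia, and Ptbp2 takes its place in neurons. Ptbp1 had 34.4, 33.5 and 29.1 CPM in the controls and 31.6, 29.6 and 29.8 CPM in the mutants (log2 fold change -0.09, interval -0.24 to 0.06, edgeR adjusted p = 0.491). Ptbp2 had 139, 134 and 140 CPM against 139, 142 and 144 CPM (0.04, interval -0.04 to 0.13, adjusted p = 0.600), and Ptbp3 a log2 fold change of 0.10 (interval -0.02 to 0.21, adjusted p = 0.330). Within each library, the FPKM of Ptbp2 over that of Ptbp1 was 2.96, 2.97 and 3.60 in control libraries against 3.48, 3.82 and 3.72 in mutant libraries. Control 3 lay above mutant 1 in this ratio, so the groups overlap.

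Khdrbs1 (Sam68) had 131, 128 and 122 CPM in the controls and 131, 139 and 136 CPM in the mutants, a log2 fold change of 0.09 (interval 0.0029 to 0.18, edgeR adjusted p = 0.206). Its groups touch but do not overlap. Khdrbs3, a neuronal relative that acts on neurexin splicing, had 147, 139 and 161 CPM against 135, 144 and 155 CPM (-0.04, interval -0.16 to 0.08, adjusted p = 0.734). Khdrbs2 is the low member, at 6.84, 5.97 and 6.19 CPM against 5.19, 5.74 and 6.33 CPM, and its interval was wide, from -0.43 to 0.16 (adjusted p = 0.626).

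Mbnl2, a paralog of Mbnl1 with a like role in splicing, had 274, 308 and 289 CPM in the controls and 294, 280 and 311 CPM in the mutants (log2 fold change 0.02, interval -0.08 to 0.12, edgeR adjusted p = 0.832). By FPKM, Mbnl2 exceeded Mbnl1 in every library. The ratio of Mbnl2 to Mbnl1 was 3.62, 3.82 and 3.90 in control libraries against 4.23, 4.24 and 4.44 in mutant libraries. These ranges do not overlap, and no separate test of the ratio was made. The difference between the fold changes of the 2 genes was not tested.

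Ordered by mean FPKM over the 6 libraries, the neuronal and tissue-type families ran from Mbnl2 at 46.3 and Khdrbs3 at 46.0, which do not differ beyond their spread over libraries, through Elavl3 at 35.4, Celf1 at 32.8, Celf5 at 32.6 and Celf4 at 32.2, the last 3 again within their spread. Below came Ptbp2 at 30.01, Khdrbs1 at 24.9, Rbfox2 at 22.9, Celf2 at 21.04, Celf3 at 20.2, Rbfox3 at 19.8, Elavl4 at 15.8, Nova2 at 12.4, Mbnl1 at 11.5, Elavl2 at 11.4 and Elavl1 at 11.3. The lowest were Ptbp1 at 8.83, Nova1 at 6.40, Ptbp3 at 5.57, Rbfox1 at 4.66, Khdrbs2 at 2.70 and Celf6 at 2.56 FPKM. This order depends on the gene lengths behind the FPKM. The length implied by counts and FPKM was 82.8 kb for Rbfox1, or 27.0 times its longest GENCODE M21 transcript, and 4.39 and 4.38 times the longest transcript for Rbfox3 and Celf4. Per kilobase of the longest transcript instead, the highest were Celf4 at 141 CPM, Rbfox1 at 126, Rbfox3 at 86.8, Celf2 at 62.8 and Celf5 at 62.4, ahead of Mbnl2 at 52.6 and Khdrbs3 at 51.3.

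**Figure D3:**
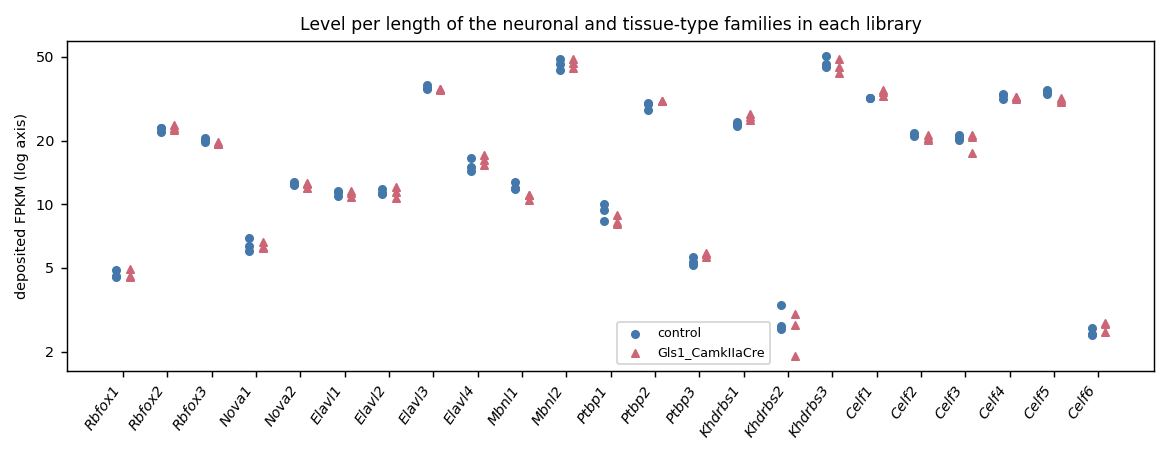
Deposited FPKM (vertical log axis) of the tested members of 7 families in each of the 3 control (circles) and 3 Gls1_CamkIIaCre libraries (triangles). Within most genes the groups overlap. Mbnl1, Celf5 and Rbfox3 lie wholly lower in the mutants and Celf1, Ptbp2 and Khdrbs1 wholly higher. By CPM the groups of Celf5, Rbfox3 and Ptbp2 overlap. Summed FPKM of all genes was lower in every mutant library (238924 to 243144) than in every control (249602 to 252272). Overlap in FPKM was not counted over all genes. Genes of 1 family can lie more than an order of magnitude apart.

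Other genes of the splicing machinery were taken from 3 lists chosen with earlier results of these data known. For comparison with the counts on these 3 lists, 3.95% of all tested genes were called higher and 4.29% lower. Of 37 tested regulators outside the 10 families, 2 rose and 1 fell, with a median log2 fold change of 0.0078. Srrm4, which drives microexon inclusion in neurons, had 62.6, 60.0 and 56.3 CPM in the controls and 74.9, 71.4 and 71.5 CPM in the mutants (0.28, edgeR adjusted p = 0.00222). Rbmx, an X-linked heterogeneous nuclear ribonucleoprotein, rose by 0.18 (adjusted p = 0.0396) and Rbms3 fell by 0.31 on the log2 scale (adjusted p = 0.0253). Of 9 kinases that phosphorylate SR proteins or the spliceosome, Prpf4b rose by 0.16 (edgeR adjusted p = 0.0301) and Srpk2 by 0.14 (adjusted p = 0.0479), while Clk1 had 0.10 (adjusted p = 0.237). The median of the kinases was 0.04. Of 49 core spliceosome genes, Snrnp200, the helicase that unwinds U4 from U6, was the call, with 124, 125 and 115 CPM against 134, 147 and 146 CPM (log2 fold change 0.23, edgeR adjusted p = 0.00467). Eftud2 (0.17, adjusted p = 0.0596) and Aqr (0.17, adjusted p = 0.0795) did not pass, and the median of the core genes was 0.03. The next 3 core genes by p, named after their values were seen, were lower without overlap of the groups and did not pass. They were Snrpd2 (-0.18, edgeR adjusted p = 0.0812), Snrpf (-0.25, adjusted p = 0.0950) and Snrpg (-0.28, adjusted p = 0.0999). The calls of Rbmx, Rbms3, Prpf4b and Srpk2 were lost on the FPKM values and without at least 1 library.

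Called members were found with and without a splicing term. Of 56 tested members with such a term 4 were called, while 3 of 31 without one were, against 8.24% of all tested genes. The difference between the shares called was not tested. The median log2 fold change of each set of members was 0.02. Of all members, 21 overlap another protein-coding gene in the GENCODE M21 annotation, Ptbp1, Hnrnpk, Hnrnpu and Elavl3 among them. The use of strand in counting is not given in the sources used here, so reads of overlapping genes may be mixed.

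Markers of other cell types and of a neighbouring region moved with the groups. For comparison with the counts below, 3.95% of all tested genes were called higher and 4.29% lower, and 22.4% had an unadjusted edgeR p under 0.05. Of 20 striatum genes, 18 fell (median log2 fold change -1.61), and their relative level, with each gene's overall mean set to 1, averaged 1.19, 2.06 and 1.39 in control libraries against 0.44, 0.44 and 0.48 in mutant libraries. Their summed level was 1240 to 1909 CPM in the controls and 634 to 687 CPM in the mutants, and none was at 0 throughout. Meningeal genes summed to 84.2 to 96.0 CPM against 57.7 to 65.4 CPM, and oligodendrocyte genes to 3397 to 4029 CPM against 3086 to 3518 CPM. Control 2, the library with the highest striatal level, also held the highest Mbnl1 value of the 6. It was not highest for striatum alone. Its mean relative level also topped the oligodendrocyte (1.16), endothelial and mural (1.16), blood (1.24), interneuron (1.08) and choroid plexus and ependyma (1.13) lists. It did not top the astrocyte, oligodendrocyte precursor, microglial, meningeal or excitatory lists. No link of Mbnl1 to any list was tested. Lower calls were also made for 6 of 6 meningeal, 4 of 8 endothelial and mural, 4 of 8 oligodendrocyte, 3 of 8 astrocyte, 3 of 6 oligodendrocyte precursor, 3 of 7 interneuron, 2 of 8 microglial and 2 of 5 blood genes, with no higher call on these lists. Choroid plexus and ependyma genes gave 0 calls of 4 by edgeR, with 2 at an unadjusted p under 0.05, and of 8 excitatory cortical neuron genes 1, Fezf2, rose. The excitatory list, which marks the labelled cortex, summed to 5112 to 5375 CPM in the controls and 5278 to 5826 CPM in the mutants, with no gene at 0 throughout. The part of these shifts in the called members was not tested. Camk2a, whose promoter drives the Cre, had 3267, 3307 and 3193 CPM in the controls and 3405, 3513 and 3769 CPM in the mutants (edgeR adjusted p = 0.0602).

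How firmly each of the 7 calls stands differs. All 7 kept their direction in the 19 other settings run. Hnrnph2 was called in 18 of 19, Rbm26 in 17, Rbm5 in 16, Hnrnpc in 13, Mbnl1 in 11, Hnrnpr in 6 and Hnrnpul2 in 5. Rbm26 lost its call in the 2 fits on FPKM alone (adjusted p = 0.0608 and 0.0548), and Hnrnph2 without mutant 2 alone (0.0648). Hnrnpc lost its call without control 1, control 2, mutant 2 or mutant 3 (adjusted p 0.0611 to 0.0652), Hnrnpr without any library but mutant 1, and Hnrnpul2 without any of the 6. Hnrnpr had a log2 fold change of 0.0157 after an offset for the length of the longest GENCODE transcript (adjusted p = 0.903). That transcript has 21452 bases, more than for any other member, while counts and FPKM imply 13046 bases. The value therefore rests on the offset at an extreme length. Higher and lower calls numbered 5 and 2, but 3 and 4 with upper-quartile factors, which also took the share of higher calls among all called genes from 48.0% to 36.4%. On log2(FPKM + 1) and log2(FPKM + 0.1) that share was 18.2% and 17.2%, and Hnrnph2 was the member called in both. Without control 1, control 2 or mutant 2 no member was called lower (0 by edgeR in each), and 3, 3 and 2 members were called higher. Without control 3 there were 3 higher and 2 lower, and without mutant 1 or mutant 3 there were 4 higher and 1 lower.

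**Figure D4:**
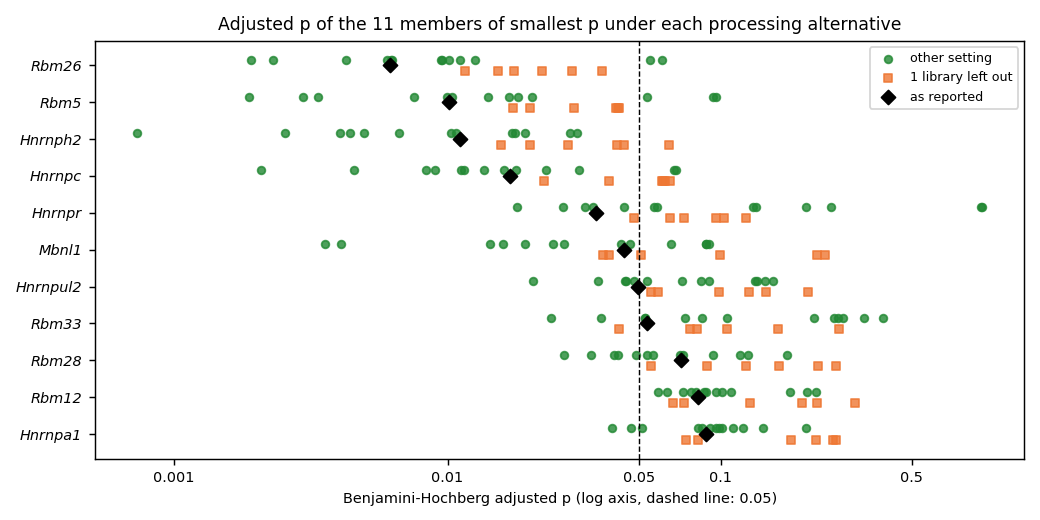
Benjamini-Hochberg adjusted p (horizontal log axis, dashed line at 0.05) of the 11 members of smallest p, with a black diamond for the value reported, green circles for other settings and orange squares for fits without 1 library. Rbm26, Rbm5 and Hnrnph2 lie mostly left of the line, while Hnrnpr, Hnrnpul2 and the 4 uncalled members straddle it or lie to its right.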

How the data were processed

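Total RNA of prefrontal cortex was taken up in TRIzol, and SMARTER mRNA-Seq libraries were made from it, per the labels' protocols. For every gene the authors deposited whole-number counts of reads in one table and FPKM, which divide by gene length and depth, in another. Per the submitters' processing notes the genome was GRCm38, also called mm10. For the aligner, counting tool and strand setting, nothing is given in the sources used here.

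The deposited counts entered edgeR 4.0.16 under R 4.3.3 unchanged (TMM factors, filterByExpr, robust quasi-likelihood fit, no covariate, 14440 genes). The common biological coefficient of variation came to 4.75%. No library duplicated another of its group, since pairs differed beyond sampling noise (chi-square per degree of freedom 2.27 to 4.16). Standard errors and 95% intervals come from the same fit. The procedure was tested on simulated data. Alternatives used DESeq2 1.42.0, limma 3.58.1 (voom, or log2(FPKM + 1) and log2(FPKM + 0.1)), other scaling factors and count filters, a replicate block, offsets for gene length (a spline with 4 degrees of freedom per library), and each library left out. The offset from the longest GENCODE M21 transcript was chosen after seeing the data.

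Members and gene lists were chosen with earlier results of these data known. Named members are those called, the member of smallest p and of highest FPKM in each family, and all tested members of the Rbfox, Nova, Elavl, Mbnl, Ptbp and Khdrbs families. From each splicing list the 3 genes of smallest p and every called gene are named, and from the core spliceosome list also the next 3 by p. The level of the targeted gene is not reported here. Coordinates and promoters are from RefSeq, where all 92 members matched by gene identifier. Values of genes with close copies, such as Hnrnpa1, Hnrnpc, Hnrnph1 and Hnrnph2, Rbm4 and Rbm4b, or Rbm12b1 and Rbm12b2, depend on how shared reads were counted.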

Additional observations from a re-analysis of the deposited data

How the results depend on the processing

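Counts of called members moved with most choices and the direction of the 7 called members with none of the 19 run. DESeq2 and limma voom each gave 1 member called lower. Upper-quartile factors gave 3 higher and 4 lower, with a member median of 0.0017. The FPKM fits gave 1 higher and 0 lower with either pseudocount, and 122 and 126 genes called higher overall. The offset for the length implied by counts and FPKM gave 3 members higher and a median of -0.0041, with 337 genes called higher and Celf2 newly called lower, and the offset from the longest GENCODE transcript gave 2 members higher, with 349 genes called higher. Leaving out 1 library gave 2 to 4 members called higher, 0 to 2 called lower and a median between 0.0105 and 0.0299, and over all genes 197 to 556 called higher and 218 to 542 called lower. Among the 80 uncalled members, the sign of the fold change turned for up to 17 under the implied-length offset and for 16 on FPKM. Numbers of called genes with a lone left-out library rest on 2 mice in 1 group.

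Deviations of same-numbered libraries correlated at 0.139, -0.026 and 0.140, and those of differently numbered libraries at -0.171 to 0.047. Whether the replicate numbers of the labels pair the samples is not settled by these values. With the replicate block there were 6 members called higher and 4 called lower, and 863 genes called higher overall (1758 called in either direction). With the replicate block and the implied-length offset there were 3 higher and 5 lower, the median was -0.0041, and Rbfox1 turned to -0.12 (adjusted p = 0.0404), from 0.01, and was called lower; the cause was not tested. With the replicate block and the GENCODE offset 4 members were called lower. Low members such as Rbm38 and Rbm47 had intervals too wide to bound a 1.25-fold difference.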

Other observations

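For a few members the deposited counts and FPKM imply a gene length far from the longest GENCODE M21 transcript. Each library's summed counts were taken as its depth, so another depth or set of reads behind the FPKM would change this length. The length that turns the counts into the FPKM values was a median of 1.47 times the longest GENCODE M21 transcript over the 87 tested members, and 1.41 times over 13955 tested genes with a length. It was above 4 times for 4 members (4.60%), against 441 genes (3.16%): Rbfox1 at 27.0 times, Rbm39 at 4.73, Rbfox3 at 4.39 and Celf4 at 4.38. For Rbfox1 this puts a gene of 371 to 411 CPM at 4.52 to 4.93 FPKM. These genes were picked after their values were seen.

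Rbm4 goes the other way. It had 9, 6 and 8 counts in control libraries and 11, 8 and 7 in mutant libraries, yet 3.53, 3.58 and 4.29 FPKM in the controls and 4.16, 3.89 and 4.09 FPKM in the mutants, which implies a length of 111 bases against a longest transcript of 2965. Its close copy Rbm4b lay between 18.9 and 22.7 CPM in the 6 libraries, with an implied length 3.39 times its longest transcript. The counts and the FPKM therefore give different levels for Rbm4, which did not pass the main filter on low counts. Another protein-coding gene model, Gm21992, overlaps Rbm4 on the same strand over 9609 bases. How reads in that stretch were counted is not given in the sources used here.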
